A study of Mus musculus with 2 samples.

Results

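The genes described here are the members of 7 solute carrier families that move amino acids and related small molecules across membranes: SLC1, SLC3, SLC6, SLC7, SLC36, SLC38 and SLC43. They were chosen by name, as mouse genes whose symbol is Slc1a, Slc3a, Slc6a, Slc7a, Slc36a, Slc38a or Slc43a followed by digits only. This rule uses no measured value, though the families were picked for description with earlier results of these data known. Of 20017 genes named on the array, 59 belonged to these families, with 76 probes in all. A further 2 family genes, Slc6a5 and Slc6a16, were not matched to a probe and are not analysed here. Slc6a20a and Slc6a20b fall outside the rule because of their letter suffix and are given beside the related carriers.

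RNA came from glomerular regions micro-dissected from kidneys of male mice on a C57BL/6J background. Both groups were made diabetic with streptozotocin (STZ), a toxin of the insulin-producing beta cells, in 100 mmol/l citrate buffer from 8 weeks of age, and both were killed at 32 weeks. The WT+STZ mice were wild type, and the TG+STZ mice carry a transgene that overexpresses Sirt1, a deacetylase that uses NAD, as far as the label tells. Each group had 1 array, hybridised in 1 colour (Cy3). The title of the series speaks of renal tubular Sirt1, whereas the promoter of the transgene and the count of mice per array are not given in the sources used here. No nondiabetic group was analysed here.

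With 1 array per group there is no replicate check, no test between groups and no spread between mice. Every difference below is a log2 value, TG+STZ minus WT+STZ, taken after each array was centred on the 75th percentile of its gene probes. The ± value is the scanner software's error for a single hybridisation and says nothing about mice. Signals are processed intensities in arbitrary units before that centring. Probes differ in how strongly they bind, so the signal of one gene is not set against that of another as an amount of RNA. Of the gene spots, 75.04% were well above background for WT+STZ and 76.26% for TG+STZ, and none was saturated. In tissue, fewer cells of a type and less RNA per cell cannot be told apart.

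Almost all amino acids that pass the glomerular filter are taken back by the proximal tubule, the first stretch of the nephron. Carriers of the brush border bring them into the cell together with sodium, protons or in exchange for other amino acids, and exchangers on the opposite face pass them to the blood. Members of SLC3 are single-span heavy chains that carry the SLC7 light chains to the membrane, and the light chain does the transport. Other family members serve the needs of the cell itself, its volume in concentrated urine or, in nerve endings, the removal of transmitters.

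The RNA held transcripts of tubule as well as of glomerulus. All 12 podocyte markers and all 12 glomerular endothelial markers on the array were well above background on both arrays, as were all 15 markers of the early proximal tubule (S1 and S2) and all 9 of its last part (S3). The summed signal of the S1 and S2 markers was 1357550 (WT+STZ) and 1408700 (TG+STZ) units, and that of the S3 markers was 584805 and 671511. Sums here and below are before centring, and the 75th percentile itself was 1933 (WT+STZ) and 2042 (TG+STZ) units. After centring, the ratio of the sums (TG+STZ over WT+STZ) was 0.98 for S1 and S2 and 1.09 for S3. The S1 and S2 markers had a median difference of -0.01, which was on either side of 0 depending on the scaling, and the S3 markers one of -0.05. Podocyte markers summed to 34734 and 31576 units, a ratio of 0.86 after centring, with a median difference of -0.03.

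Of the 59 transporter genes, 48 were measured, which means that 1 or more probes stood well above background on each array, 1 was above background in WT+STZ alone and 10 on neither array. Over all named genes, 79.8% were measured and 17.8% were above background on neither array. Of the 48, 32 lay within the software error of 0 and 16 beyond it, or 33.3%, where 23.7% of all measured genes lay beyond theirs. Slc36a2 alone passed 2-fold on the higher side in TG+STZ, and Slc6a12 and Slc7a12, 2 genes, on the lower side. Among all 15975 measured genes, 0.52% passed 2-fold on the higher side and 0.469% on the lower side. At 1.5-fold, 1 transporter gene was higher and 3 were lower, where 1.75% and 1.91% of all genes were.

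Within the families the lower side was the fuller one. The median difference of the 48 genes was -0.08, against 0.00 over all measured genes, and 32 of the 48 were below 0, or 66.7%, where 49.1% of all genes were. Under normexp background correction 72.9% of the 48 and 63.1% of all genes were below 0, so the size of the gap depends on this step. By more than the software error, 11 transporter genes were lower and 5 were higher, and over all genes 13.3% were lower and 10.4% higher by that measure. In all, 42 of the 48 kept their sign under each of 6 other scalings, 29 of them lower and 13 higher. The 6 that did not were Slc1a3, Slc43a2, Slc38a6, Slc1a6, Slc6a9 and Slc7a4, none of them further than 0.05 from 0. Median, spike-in and detected-probe centring each shift all genes by the same small amount, so only genes close to 0 could change sign under them. All scalings reuse the same arrays, so the count of kept signs is no measure of robustness. The values are shown gene by gene in the plot of signals and in the plot of differences.

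**Figure D1:**
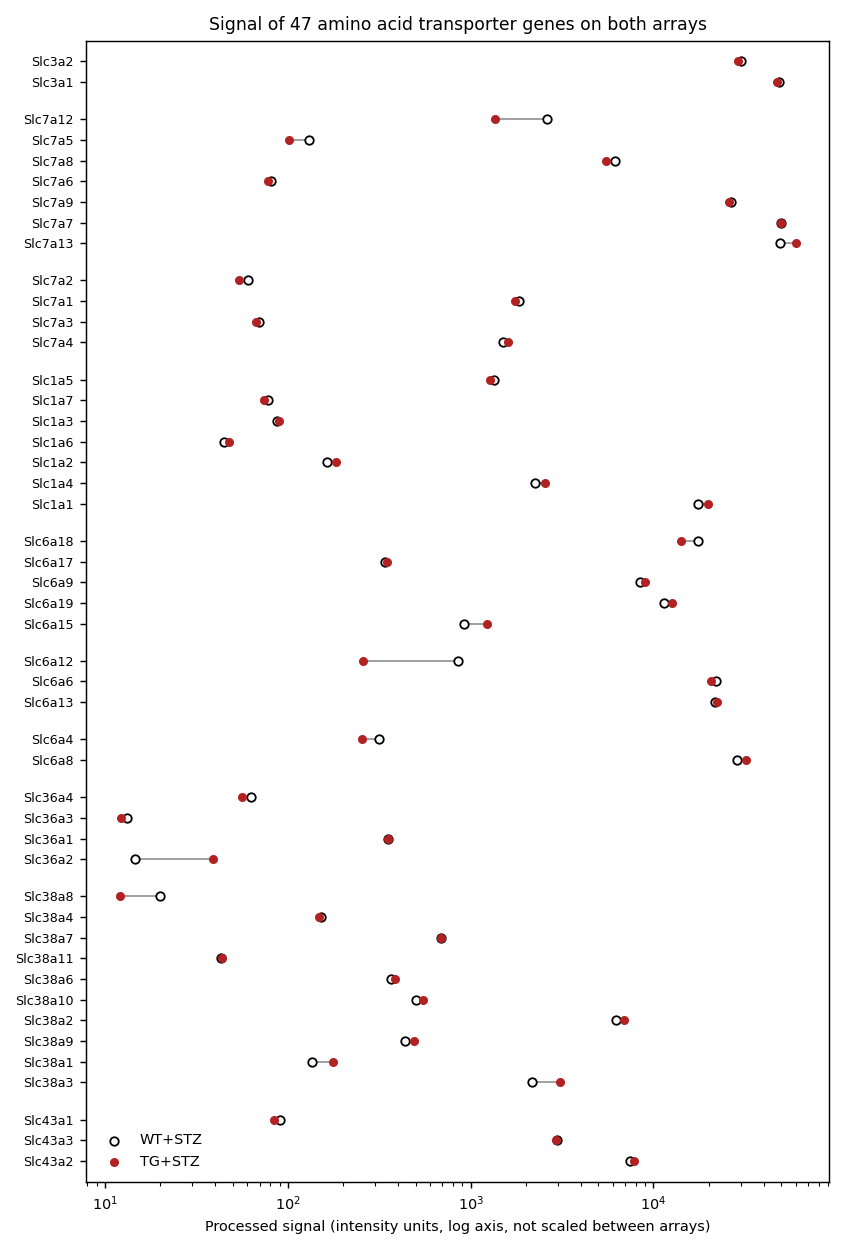
Processed signal (intensity units, log axis) of 47 of the 48 measured transporter genes, grouped by role, with an open point for the WT+STZ array and a filled point for the TG+STZ array. The points of Slc6a12, Slc7a12 and Slc36a2 stand well apart, at 849 and 256, 2626 and 1357, and 14.5 and 39.0 units, while most other pairs nearly coincide.

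**Figure D2:**
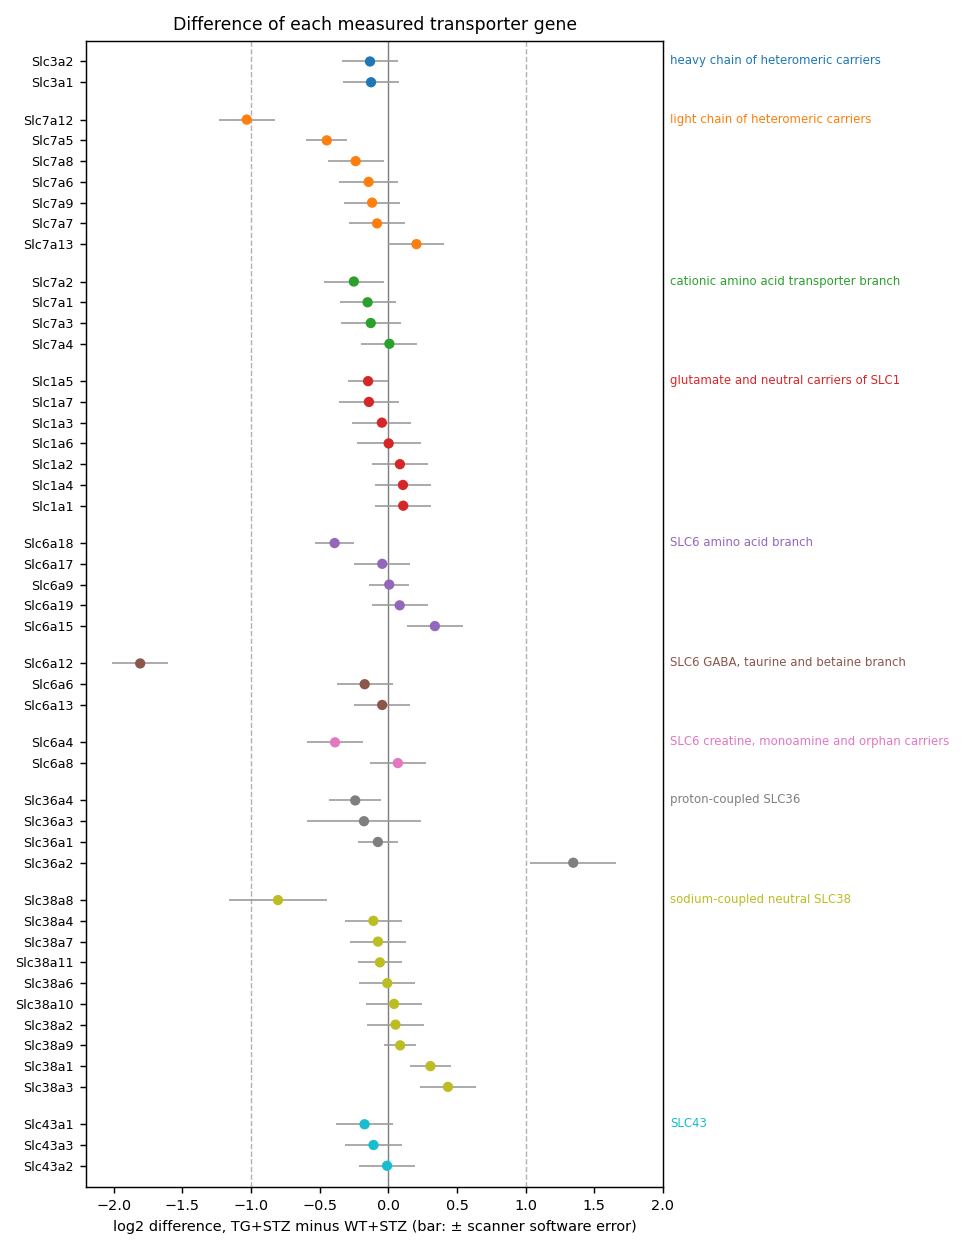
Difference between the arrays (log2, TG+STZ minus WT+STZ) for the same 47 genes, coloured by role, with bars for the scanner software's error and dashed lines at 2-fold. Slc6a12 at -1.81, Slc7a12 at -1.03 and Slc36a2 at 1.35 lie beyond the dashed lines.

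The gene furthest from 0 was Slc6a12, which encodes a betaine and GABA transporter that cells of the renal medulla use to take up betaine as a protective solute in concentrated urine. Its signal was 849 (WT+STZ) and 256 (TG+STZ) units. The difference was -1.81 ± 0.20, or 3.50-fold lower on the TG+STZ array. It rested on 1 probe, whose uncorrected median pixel value was 831 over a local background of 31 in WT+STZ and 290.5 over 27.5 in TG+STZ, so the gap was already present before background subtraction. Under normexp background correction it was -1.51.

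The gene next to it in the genome is Slc6a13, with no coding gene between them, and it behaved differently. Slc6a13 encodes a GABA and taurine transporter of the basolateral membrane of the proximal tubule. It read 21762 (WT+STZ) and 22274 (TG+STZ) units, a difference of -0.05 ± 0.20. The pair thus differed from each other by 1.76 on the log2 scale. Their upstream sequences are shown because these neighbours gave the widest contrast between adjacent family members. Each is the 250 bases before the most upstream start in the RefSeq table (GRCm38.p6, plus strand), chr6:121342324-121342573 for Slc6a12 and chr6:121300038-121300287 for Slc6a13, with capitals for a match to the tonicity element, the motif bound by NFAT5 in salt-stressed cells:
Slc6a12: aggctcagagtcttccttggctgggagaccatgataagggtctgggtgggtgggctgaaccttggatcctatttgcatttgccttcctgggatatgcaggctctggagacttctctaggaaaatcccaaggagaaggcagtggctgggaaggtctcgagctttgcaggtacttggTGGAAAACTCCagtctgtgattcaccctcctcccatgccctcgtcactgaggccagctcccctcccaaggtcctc
Slc6a13: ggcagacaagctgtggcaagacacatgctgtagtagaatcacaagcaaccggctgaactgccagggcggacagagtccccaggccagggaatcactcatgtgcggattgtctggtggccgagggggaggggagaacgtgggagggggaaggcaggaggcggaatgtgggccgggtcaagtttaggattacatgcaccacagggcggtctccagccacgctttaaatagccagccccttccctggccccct

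The match in Slc6a12, TGGAAAACTCC, begins 75 bases before that start, and none of the 4 further start windows of the gene holds one. The window printed for Slc6a13 has none, but 1 of its other windows has a match on the opposite strand. Searched on both strands, the element was present in 4.31% of 32851 windows of this length and in 7 of the 61 windows of the transporter families, or 11.5%. These belonged to Slc6a12, Slc6a13, Slc6a17, Slc6a21, Slc36a3, Slc38a4 and Slc38a6, and 41 of the 59 genes had a window in the table. Apart from Slc6a12, the measured genes with a match lay between -0.18 and -0.01, each within the software error. Slc6a21 was not well above background on either array. Its core alone, TGGAAA, which lies within every full match, was present in 18.6% of all windows and in 21.3% of the families' windows. A match is a description of the letters and does not show a binding site.

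Other genes known to respond to high salt were close to 0 or moderately lower. Of 6 such genes, chosen after the value of Slc6a12 had been seen, all were below 0, with a median of -0.19. Akr1b3, which makes sorbitol, stood at -0.06 ± 0.14, Slc5a3, the myo-inositol transporter, at -0.26 ± 0.14, Hspa4l at -0.12 and Nfat5 itself at -0.07. The further members are also genes of the collecting duct and inner medulla: Slc14a2, a urea transporter, at -0.67 ± 0.14 (3272 against 2176 units) and Aqp2, the vasopressin-regulated water channel, at -0.43 ± 0.20. Of 12 collecting duct markers 11 were lower, and their summed signal went from 86984 to 72570 units, a ratio of 0.79 after centring. Of 10 loop of Henle markers 8 were lower, with summed signals of 470955 and 500783 units, a ratio of 1.01 after centring. The part of these segments in the value of Slc6a12 was not tested.

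A further carrier of the GABA, taurine and betaine branch was close to 0. Slc6a6 encodes the taurine transporter, which reclaims taurine at the brush border and holds it in medullary cells. It read 22038 and 20653 units, at -0.17 ± 0.20. The probe for Slc6a11, a further GABA carrier, was not well above background on either array. Slc6a12, Slc6a13 and Slc6a6 were lower under every scaling, though Slc6a13 and Slc6a6 lay within the software error.

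Among the heteromeric carriers, both heavy chains were bright and close to 0. Slc3a1, which partners the cystine and dibasic amino acid exchanger of the brush border, read 48678 (WT+STZ) and 47104 (TG+STZ) units, a difference of -0.13 ± 0.20. Slc3a2, the heavy chain of the basolateral exchangers and of the widely expressed light chains, read 30107 and 28986 units, also at -0.13 ± 0.20. The light chain partner of Slc3a1, Slc7a9, whose loss causes cystinuria, was at -0.12 ± 0.20 (26655 and 25926 units). Slc7a7, the basolateral exchanger that releases dibasic amino acids to the blood, was at -0.08 ± 0.20 (49950 and 49821 units). All 4 lay within the software error.

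The light chains with a known place in the last part of the proximal tubule differed in sign, though Slc7a13 lay at the edge of the software error. Slc7a13 encodes a light chain that pairs with the Slc3a1 product in S3 and carries acidic amino acids and cystine. It read 49233 (WT+STZ) and 59920 (TG+STZ) units, at 0.20 ± 0.20, and between 0.15 and 0.23 across the scalings. Slc7a12 encodes a light chain for small neutral amino acids whose transcript is known to be higher in kidneys of female than of male mice. It read 2626 (WT+STZ) and 1357 (TG+STZ) units, a difference of -1.03 ± 0.20, or 2.04-fold lower. Its uncorrected pixel values were 2556 over a background of 25 and 1315 over 31. Across the other scalings it stayed between -1.05 and -1.01. It rested on 1 probe, so no choice of probe could change it. Slc7a12 was the only transporter gene brighter than the median measured gene to pass 2-fold. The 9 S3 markers were themselves split, with 4 higher and 5 lower. Atp11a stood at 0.60 ± 0.14 and Acsm3 at 0.57 ± 0.14, while Slc22a13 stood at -0.51 ± 0.20 and Cyp7b1, an oxysterol hydroxylase, at -0.43 ± 0.20. The part of the S3 segment in the values of Slc7a12 and Slc7a13 was not tested.

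The other light chains were mostly a little lower. Slc7a8, a basolateral exchanger of neutral amino acids, read 6153 and 5510 units, at -0.24 ± 0.20. Slc7a5, the large neutral amino acid exchanger of growing and activated cells, was dim at 130 and 101 units and stood at -0.45 ± 0.15. Its probes disagreed in size, at -0.74 for the dimmer (80.0 and 50.6 units) and -0.16 for the brighter (212 and 201 units). All 11 measured leukocyte markers were lower as well, with a median of -0.27, and at most 1 was higher under another scaling. They summed to 21735 and 21326 units, a ratio of 0.93 after centring. Their part in the value of Slc7a5 was not tested. Slc7a6 stood at -0.14 ± 0.21. Slc7a11, the cystine and glutamate exchanger, Slc7a10 and Slc7a15 were not well above background on either array. In all, 6 of the 7 measured light chains were lower and 1 was higher, where 49.1% of all genes were below 0. By more than the software error, 3 light chains were lower and 1, Slc7a13, was higher by a narrow margin. The counts by sign held under every scaling, though several scalings shift all genes by the same small amount.

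The cationic amino acid transporters, which work without a heavy chain, lay near 0. Slc7a1, the arginine and lysine carrier of most cells, read 1837 and 1747 units, at -0.15 ± 0.20. Slc7a2, an inducible arginine carrier, stood at -0.25 ± 0.22 from a dim probe (60.7 and 53.9 units), and Slc7a3 at -0.13 ± 0.22. Slc7a4, a related protein whose substrate is less clear, stood at 0.01 ± 0.20. Slc7a14 was not well above background on either array.

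The sodium-coupled brush border carriers of neutral amino acids are encoded by a pair of adjacent genes, and these stood apart by 0.47 on the log2 scale. Slc6a19, the main neutral amino acid carrier of the early proximal tubule and the gene of Hartnup disorder, read 11347 (WT+STZ) and 12689 (TG+STZ) units, at 0.08 ± 0.20. Slc6a18, its relative in the later proximal tubule, read 17525 and 14112 units, at -0.39 ± 0.14. Both probes of Slc6a18 gave this direction, at -0.41 and -0.37, and among the 11 transporter genes over 10000 units it lay furthest from 0 relative to its error. Cltrn, which encodes the collectrin protein that brings both carriers to the brush border, stood at -0.08 ± 0.14.

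The remaining measured genes of the SLC6 amino acid branch lay close to 0 or higher. Slc6a15, a carrier of branched-chain amino acids and proline known mainly from neurons, read 919 and 1227 units, at 0.34 ± 0.20. The glycine carrier Slc6a9 stood at 0.01 ± 0.14 and the vesicular carrier Slc6a17 at -0.04 ± 0.20. Slc6a7, the proline carrier of the brain, passed background in WT+STZ alone, at 21.2 against 12.2 units. These readings were 1.84-fold apart after centring, a difference of -0.88 ± 0.41, so the true gap may be smaller. Slc6a14 was not well above background on either array.

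Members of SLC6 with other substrates were few. Slc6a8, the creatine transporter, read 28792 and 31896 units, at 0.07 ± 0.20. Slc6a4, the serotonin transporter, read 315 and 254 units, at -0.39 ± 0.20. The noradrenaline and dopamine transporter genes Slc6a2 and Slc6a3 and the orphan Slc6a21 were not well above background on either array. Of 12 neuron markers 8 were measured, 7 of them lower, and Dbh and Gap43 were among those not well above background on either array. The summed signals of 30758 and 28296 units came mostly from Snap25, at 28024 and 26789 units. Npy was the lowest at -1.79 ± 0.20, and Syt1 was the marker that was higher, at 0.71 ± 0.24. The part of neurons in the value of Slc6a4 was not tested.

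The SLC1 family, which takes up glutamate or small neutral amino acids, showed no difference beyond 0.15 in size. Slc1a1, the glutamate and aspartate carrier of the brush border, read 17543 and 19971 units, at 0.11 ± 0.20. Slc1a5, a glutamine exchanger of proliferating cells, stood at -0.15 ± 0.14 with its probes at -0.16 and -0.13, and Slc1a4, its close relative, at 0.11 ± 0.20. The glial and neuronal glutamate carriers Slc1a2, Slc1a3, Slc1a6 and Slc1a7 were dim, with signals from 44.8 to 183 units, and lay between -0.14 and 0.08.

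The sodium-coupled neutral amino acid transporters of SLC38 were evenly divided, with 5 of 10 measured genes higher and 5 lower, or 6 higher under some scalings. Slc38a3 encodes the basolateral glutamine carrier that feeds ammonia production in the proximal tubule and is known to be induced in acidosis. It read 2172 (WT+STZ) and 3099 (TG+STZ) units, a difference of 0.43 ± 0.20, or 1.35-fold higher. Its range over the other scalings was 0.41 to 0.46, and it rested on 1 probe. Of 40 enzymes of renal amino acid metabolism, 23 were higher and 17 lower, with a median of 0.03 that took either sign with the scaling. Among them Glud1 stood at 0.21 ± 0.14 and Pck1 at 0.12 ± 0.20, against Got1 at -0.03 ± 0.20 and Got2 at -0.02 ± 0.20. A link of the value of Slc38a3 to acidosis was not tested.

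Slc38a2, the system A carrier that cells raise when amino acids are scarce, lay at 0.05 ± 0.20 (6274 and 6869 units). Slc38a1, its relative, stood at 0.31 ± 0.15, but its probes were at 0.54 (324 and 497 units) and 0.07 (56.6 and 62.9 units). Slc38a9, a lysosomal arginine sensor, was measured by 3 probes that agreed closely, from 0.07 to 0.12, with a mean of 0.09 ± 0.12. Slc38a8 stood at -0.80 ± 0.36, from 19.96 and 12.1 units, where spots well above background started at 10.6 (WT+STZ) and 9.70 (TG+STZ) units. Under normexp it was -0.30. The others, Slc38a4, Slc38a6, Slc38a7, Slc38a10 and Slc38a11, lay between -0.11 and 0.04, and Slc38a5 was not well above background on either array.

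The proton-coupled SLC36 family held the gene with the highest difference. Slc36a2 encodes a proton-coupled carrier of glycine and proline that the proximal tubule uses and that is also known as a surface marker of brown fat cells. Its signal was 14.5 (WT+STZ) and 39.0 (TG+STZ) units, at 1.35 ± 0.31, or 2.54-fold higher. The probe was dim, with uncorrected pixel values of 46 over a background of 36 and 74 over 32.5, and under normexp correction the difference was 0.26, so the 2-fold call was lost under that correction. Its neighbours on either side, with no coding gene between, were Slc36a3 at -0.18 ± 0.42 and Slc36a1, a lysosomal and brush border carrier, at -0.08 ± 0.15. Slc36a4 stood at -0.24 ± 0.19.

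Markers of fat cells were higher on the TG+STZ array, as Slc36a2 was. Of 12 on the array, 8 were measured and all 8 were higher in TG+STZ, with a median of 0.87. Their summed signals were 44296 and 59390 units, a ratio of 1.27 after centring. These sums came mostly from Lpl at 0.35 ± 0.14, Fabp4 at 0.34 ± 0.20 and Car3 at 0.13 ± 0.20. The brown fat genes stood at 3.63 against 274 units for Ucp1 and 49.9 against 393 units for Cidea, the latter a difference of 2.90 ± 0.21. Adipoq read 7.07 and 156 units, and Lep was not well above background on either array. Fibroblast markers were higher too, 11 of 12, with a median of 0.47, summed signals of 24625 and 33046 units, and from 9 to 11 higher across scalings. Among them Clec3b, which encodes tetranectin, read 27.9 and 63.1 units, and Dcn, which encodes the matrix proteoglycan decorin, stood at 0.46 ± 0.20. The part of fat cells or of fibroblasts in the value of Slc36a2 was not tested.

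**Figure D3:**
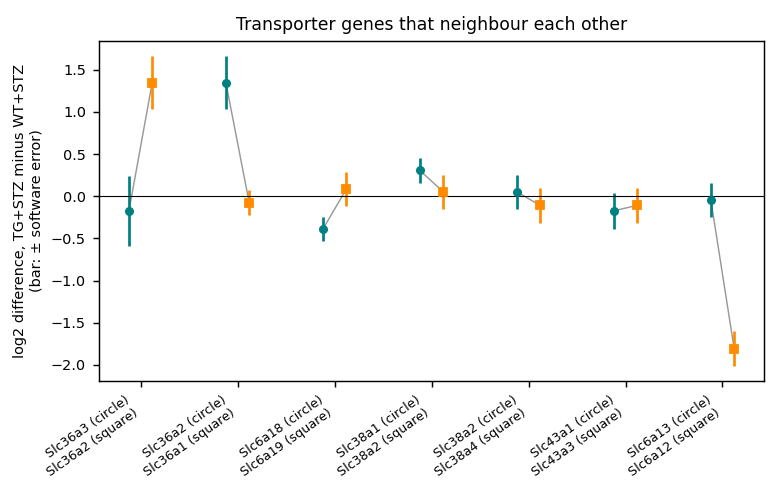
Difference between the arrays (log2, TG+STZ minus WT+STZ, bars for the software error) for 7 pairs of measured transporter genes that are neighbours in the RefSeq order, with a circle for the first and a square for the second gene of each pair. Slc6a13 and Slc6a12 stood at -0.05 and -1.81, whereas the SLC38 and SLC43 pairs were 0.07 to 0.25 apart. Slc36a2 stood apart from both of its neighbours, but its signal and that of Slc36a3 were close to background. Under normexp correction Slc36a2 was at 0.26.

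Other neighbouring members were closer to each other, as the plot of neighbouring genes shows. Slc38a1, Slc38a2 and Slc38a4 follow each other at 0.31, 0.05 and -0.11. Slc43a1 and Slc43a3, with 1 coding gene between them, stood at -0.17 ± 0.21 and -0.11 ± 0.20. Slc43a1 encodes a carrier of branched-chain amino acids, and Slc43a3 belongs to the same family but carries nucleobases. The third member, Slc43a2, a basolateral exit route for neutral amino acids in the proximal tubule, read 7432 and 7797 units, at -0.01 ± 0.20, with a sign that depended on the scaling.

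The transporter genes covered a continuous range of signal, described here at its bright end and below the median gene. Of them, 11 read over 10000 units on both arrays: Slc1a1, Slc3a1, Slc3a2, Slc6a6, Slc6a8, Slc6a13, Slc6a18, Slc6a19, Slc7a7, Slc7a9 and Slc7a13. Cells of the proximal tubule are known to express each of them. Their differences ran from -0.39 to 0.20 with a median of -0.08, 7 lower and 4 higher. Of all 1878 genes over that signal, 30.8% were lower, with a median of 0.04. Of the 25 transporter genes dimmer than the median measured gene, 19 were lower, with a median of -0.11, and they ran from -1.81 to 1.35. Of all 7988 genes in that lower part, 58.1% were lower, with a median of -0.04. The plot of all measured genes shows this narrowing toward bright genes.

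**Figure D4:**
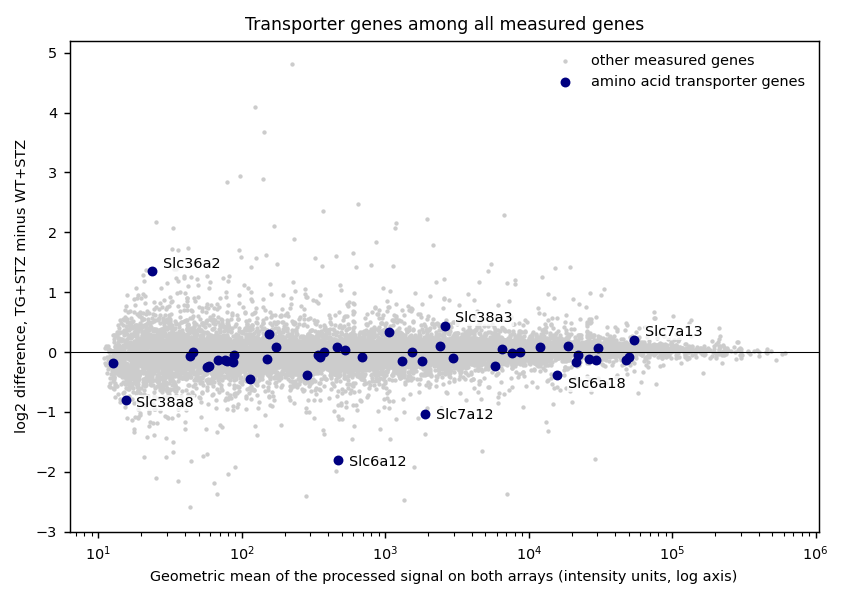
Difference between the arrays (log2, TG+STZ minus WT+STZ) against the geometric mean of the processed signal (intensity units, log axis), with the same 47 transporter genes as dark points over the other measured genes in grey. Slc6a12, Slc7a12 and Slc36a2 lie at the edge of the grey cloud for their signal, and the transporter genes over 10000 units lie between -0.39 and 0.20.

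Of 16 measured carriers of amino acids and peptides from other families, 6 were higher and 10 lower, with a median of -0.01 that took either sign with the scaling. The imino acid carriers Slc6a20a and Slc6a20b stood at -0.01 ± 0.20 and -0.02 ± 0.20. Slc25a22, a mitochondrial glutamate carrier, was furthest at 0.98 ± 0.20 (1127 and 2343 units), and Slc15a2, the peptide carrier of the late proximal tubule, stood at 0.35 ± 0.20. On the other side were Slc15a3, a peptide and histidine carrier of lysosomes, at -0.19 ± 0.21 and Slc16a10, an aromatic amino acid carrier, at -0.15 ± 0.14. Slc33a1, which carries acetyl-CoA, was taken out of this list after its value was seen. None of these reached 2-fold.

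Proteins that place carriers in the brush border gave a median of -0.08 over 12 genes, 8 of them lower. Anpep, a brush border aminopeptidase, was at 0.29 ± 0.20 and Sgk1, a kinase that regulates transporters, at 0.20, against Slc9a3r2 at -0.21 and Myo6 at -0.16. Genes of the gamma-glutamyl cycle and the brush border peptidases, which release amino acids for uptake, lay slightly higher, with 9 of 14 above 0 and a median of 0.10. Ggct and Chac2, enzymes of glutathione breakdown, stood at 0.35 ± 0.20 and 0.31, and Chac1 and Mep1b at -0.22 each.

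Several transporter genes are known targets of ATF4, the factor that cells activate when amino acids run short. Slc7a1 and Slc3a2 were at -0.15 and -0.13, within the software error. Slc7a5 was lower at -0.45 ± 0.15, but its brighter probe stood at -0.16 ± 0.21. Slc38a2, which cells also raise when amino acids are scarce, was at 0.05 ± 0.20. Slc7a11 was not well above background on either array. Of 24 other measured genes of this response, 13 were higher and 11 lower, with a median of 0.03 that took either sign with the scaling. Asns, which makes asparagine, stood at 0.63 ± 0.20 and Stc2 at 0.46, against Nupr1 at -0.43 and Atf3 at -0.38. The ATF4 core TGATGNAA, searched on both strands, was present in 3.45% of all promoter windows and in 4 of the families' 61, which belonged to Slc6a21, Slc7a7 and Slc7a11.

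Genes of lysosomal amino acid sensing had a median of 0.03, with 13 of 22 higher. Castor1, an arginine sensor, and Mtor stood at 0.21 and 0.17, and the GTPase gene Rragb and the stress gene Sesn1 at -0.43 and -0.37. Of 40 enzymes of renal amino acid metabolism, 23 were higher and 17 lower, with a median of 0.03 that took either sign with the scaling. Odc1, which starts polyamine synthesis, stood at 0.89 ± 0.12 (14483 and 28330 units) and Bcat2, which removes the amino group of branched-chain amino acids, at 0.69 ± 0.20. Kyat3, a kynurenine aminotransferase, was at -1.66 ± 0.14 (8114 and 2719 units) and Sardh, which degrades sarcosine, at -0.39.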

How the data were processed

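The deposited scanner tables hold, for each spot of each array, a processed intensity, its error and quality flags. The authors removed background from these intensities within each array with Agilent Feature Extraction, version 10.7.1.1 per the file headers. Version 10.3.1.1 stands in the submitters' processing notes. The deposited value table repeated these intensities at all 44397 spots of each array.

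Control spots and 177 gene spots marked as outliers on either array were left out. The log2 intensity was centred on each array's 75th percentile over 43020 gene spots, and spots of 1 probe were averaged. Probes were named by accession through a RefSeq table of GRCm38.p6, which matched 26410 of 39426. Probes well above background and unsaturated on both arrays were averaged per gene, and the software error was combined over arrays and probes. A gene above background on 1 array has a fold set against the higher of its own dim signal and the lowest signal above background there. This fold carries the software error and is not a firm bound.

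The families, gene lists and alternatives were chosen with earlier results of these data known, and the members within the families by symbol alone. Values are given for genes at least 1.5-fold apart, the 8 highest and 8 lowest, carriers of textbook renal physiology, and the 2 furthest genes on each side of each related list. Other genes were named after their values were seen. The values of 1 measured transporter gene are not reported here. The Agilent grid was built on another genome build, so positions are given only for RefSeq promoter sequences.

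The steps were tested on simulated data. Alternatives were normexp on spot medians (offset 50), median, spike-in and detected-probe centring, quantile and loess normalization (span 0.3), the value table, other filters and probe choices, a 1.5-fold threshold and other memberships. The work used limma 3.58.1 in R 4.3.3, and Python 3.11.15 with statsmodels 0.14.6, pandas 2.3.3, numpy 2.4.6 and matplotlib 3.10.9.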

Additional observations from a re-analysis of the deposited data

How the results depend on the processing

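The counts of transporter genes past 2-fold, 1 higher and 2 lower, changed under few settings. Under normexp background correction none was 2-fold higher and the median difference was -0.13, where that of all genes was -0.05. Among the 23 transporter genes brighter than the median gene, 0 were 2-fold higher, 1 was lower and 10 were above 0, with a median of -0.045. Of all 7987 genes in that brighter part, 21 were 2-fold higher and 15 lower. In that part 4792 were above 0, with a median of 0.025. Under every other setting run, the counts stayed within 1.5 times the values reported, and the median of the transporter genes lay below 0. With a 1.5-fold threshold, 1 gene was higher and 3 were lower. Of 298 values of single named genes under the alternatives, 292 moved by less than the software error, 6 moved further and none of the genes past 1.5-fold changed sign. The 6 were Slc6a12 at -1.51, Slc38a8 at -0.30, Slc36a2 at 0.26 and Slc38a1 at 0.15, all under normexp, and, with the brightest probe alone, Slc7a5 at -0.16 and Slc38a1 at 0.54. Many of the 298 could not move, so the count is no measure of robustness. The value table holds the same intensities, and the bright-gene setting keeps the main values. Filters and probe choices leave most genes with 1 probe unchanged, and each other centring shifts all genes by the same small amount. The normexp offset pulls dim genes toward 0 by its construction. No paired analysis was possible because each group has 1 array. For the same reason no array could be left out. Signal close to background limits Slc36a2, Slc38a8, Slc36a3 and Slc6a7 most.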
